A study of Mus musculus with 23 samples.

Results

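Ankrd1, Amotl2, Ccn1, Ccn2, Vgll3, Lats2, Yap1, Tead1, Axl and Ajuba, 10 genes of the YAP and TEAD pathway, were measured by expression array in 8 LLC subclones. LLC, for Lewis lung carcinoma, is a cell line from a lung tumour of the mouse. The genes were chosen by name, with earlier results of these data known. All 10 were found among 18193 genes with a probe set of their own symbol. Each gene is given by its probe set with the highest mean level over all 23 arrays. The subclones are called 2, 3, 6, 18, 19, 23, 24 and 28, and each was derived from parental LLC cells by limiting dilution, so that each is 1 clonal line. All were kept in DMEM with 10% serum and then held for 24 h in serum-free FreeStyle expression medium before RNA was taken, a step they all share. Subclone 6 had 2 arrays and the other subclones 3 each. Arrays of 1 subclone are labelled as biological replicates, without a statement that separate cultures were grown, so p-values measure only the spread between these arrays. No parental sample is among the groups.

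YAP, encoded by Yap1, and its relative TAZ, encoded by Wwtr1, are transcriptional coactivators that do not bind DNA themselves and act mainly through the TEAD family of DNA-binding proteins. The kinases LATS1 and LATS2, at the end of the Hippo kinase cascade, phosphorylate YAP and TAZ and hold them in the cytoplasm. The pathway responds to cell density, cell shape, matrix stiffness and serum lipids, and several of its targets, among them Lats2 and Amotl2, encode proteins that restrain YAP in turn. VGLL proteins compete with YAP and TAZ for TEAD.

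The data show 4 of the 10 genes differing widely between subclones. Ankrd1, Amotl2 and Ajuba were highest in subclones 18, 19 and 23, and Vgll3 was high in subclone 18 alone. Lats2 was also highest in subclones 18, 23 and 19, over a range just short of 2-fold. The means of Yap1, Tead1, Axl and Ccn1 each ranged over 1.47-fold or less, and Ccn2 was near the lowest intensities in every subclone.

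TEAD proteins bind DNA over the core bases GGAATG, which read CATTCC on the other strand. Promoters were available for 8 of the 10 genes in a RefSeq table of build GRCm38.p6; Ccn2 and Tead1 were not listed there. Those of the 4 genes with the widest ranges and of Axl, whose mean ranged over 1.47-fold, are shown. All 5 were picked as holding the core bases, so they cannot tie these bases to the behaviour of a gene. Each line gives the 250 bases before the start of the gene, 5′ to 3′ on the strand of the gene, with every GGAATG or CATTCC in capitals. The windows are chr19:36119845-36120094 (minus strand) for Ankrd1, chr9:102717554-102717803 (plus strand) for Amotl2, chr14:54577662-54577911 (minus strand) for Ajuba, chr16:65814939-65815188 (plus strand) for Vgll3 and chr7:25788734-25788983 (minus strand) for Axl.
Ankrd1: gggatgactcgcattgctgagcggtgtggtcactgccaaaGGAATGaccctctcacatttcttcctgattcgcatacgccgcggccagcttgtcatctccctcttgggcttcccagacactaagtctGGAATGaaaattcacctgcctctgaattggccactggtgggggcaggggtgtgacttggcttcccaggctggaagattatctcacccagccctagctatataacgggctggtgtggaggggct
Amotl2: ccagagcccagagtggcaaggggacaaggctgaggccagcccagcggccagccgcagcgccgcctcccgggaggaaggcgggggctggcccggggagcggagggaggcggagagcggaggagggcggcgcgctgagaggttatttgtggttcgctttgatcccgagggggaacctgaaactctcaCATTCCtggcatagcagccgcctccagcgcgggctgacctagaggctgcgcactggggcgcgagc
Ajuba: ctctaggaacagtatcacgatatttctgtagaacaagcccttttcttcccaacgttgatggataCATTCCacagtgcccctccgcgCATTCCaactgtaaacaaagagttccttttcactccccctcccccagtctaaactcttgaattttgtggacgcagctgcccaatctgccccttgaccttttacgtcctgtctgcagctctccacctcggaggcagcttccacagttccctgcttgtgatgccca
Vgll3: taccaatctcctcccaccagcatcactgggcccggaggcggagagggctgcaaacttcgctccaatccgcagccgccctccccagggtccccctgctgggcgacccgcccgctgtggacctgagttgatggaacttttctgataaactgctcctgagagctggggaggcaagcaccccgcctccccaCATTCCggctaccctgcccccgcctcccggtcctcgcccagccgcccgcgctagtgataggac
Axl: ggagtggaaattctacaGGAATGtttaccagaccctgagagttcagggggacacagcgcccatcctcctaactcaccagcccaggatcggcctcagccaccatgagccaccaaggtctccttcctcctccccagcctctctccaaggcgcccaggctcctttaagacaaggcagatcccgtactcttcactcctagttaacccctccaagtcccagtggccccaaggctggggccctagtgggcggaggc
Of the 8 genes with a promoter, 7 held the 6 bases on either strand, against 12.64% of 32851 promoters of the same length in the table. Ankrd1 and Ajuba held them 2 times each, as 1.02% of all promoters did at least. In Ankrd1 the matches began 210 and 123 bases before the start, in Ajuba 186 and 164, in Amotl2 65, in Vgll3 63, in Axl 233, in Ccn1 103 and in Yap1 141. Lats2 had no match in this window of either of its 2 listed promoters. TGANTCA, the site of AP-1 proteins that often lies beside TEAD sites, was in none of the 8 and in 6.75% of all promoters, counted on both strands. A match is a run of letters and not a site shown to be bound, and the members were not chosen independently of their known ties to TEAD.

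Intensities below are the deposited linear values. Levels are log2(intensity + 16), given as mean ± SD over the arrays of a subclone, and folds on this scale understate the change of genes with low intensities. As no detection calls were used, an intensity of 24 (a level of 5.32) served as the mark of a low value, and 32.3% of all genes had a mean level under it. Array means lay between 412 and 441.1, with no pair of arrays identical, and for arrays their number limits the precision. LLC markers were checked on the same arrays. Krt18, a keratin of simple epithelium, had subclone means of 10.82 to 11.97, and the mesenchymal genes Vim and Fn1 lay at 13.18 or above, and Epcam, an epithelial adhesion gene, at 7.05 to 7.99. Cdh1, the epithelial cadherin, stayed under 5.32 in every subclone. Of 6 lung epithelium markers, Nkx2-1, a lung lineage factor, and Sftpa1 stayed under it, while Hopx (9.04 to 10.55) and Sftpb (6.48 to 6.68) were above it throughout. Of the leukocyte markers measured, 4 of 5 stayed under 5.32 in every subclone, Csf1r being the exception (7.02 to 7.29). Of 4 endothelial markers, Pecam1 and Kdr stayed under it, while Cdh5 reached 5.33 and Tek 5.42. Krt8, the keratin partner of Krt18, was at 5.70 in subclone 18, against 10.32 to 11.29 in the others. The mean of the 6 epithelial markers was thus 6.47 in subclone 18, against 7.13 to 7.77, although Epcam was highest there (7.99). The Epcam probe set carries the suffix x_at, which marks probes that may also match other transcripts. The part of Krt8 in the results on subclone 18 was not tested.

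A moderated F-test in limma asked of each gene whether its 8 subclone means were equal, with Benjamini-Hochberg adjustment over all 18193 genes. Of the 10 genes, 9 passed at an adjusted p under 0.05, against 61.8% of all genes, and the remaining gene was Ccn2 (adjusted p = 0.205). With a range of subclone means of at least 1 log2 unit asked as well, 4 of 10 passed, against 12.7% of all genes. Genes near the floor seldom reach such a range. Among the 13609 genes with an intensity of at least 24 on at least 2 arrays, the share was 16.9%. Without subclone 18, an alternative chosen after seeing the data, 2 of 10 passed, Ankrd1 and Amotl2, against 9.95% of all genes in that fit. Ankrd1, Amotl2 and Vgll3 had ranges over 2 log2 units, as 2.5% of all genes did. The median range was 0.75 for the 10 genes and 0.49 for all genes. Because the 10 genes were chosen with earlier results of these data known, a share above that of all genes may reflect that choice. The same holds for the pairs and gene lists below.

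**Figure D1:**
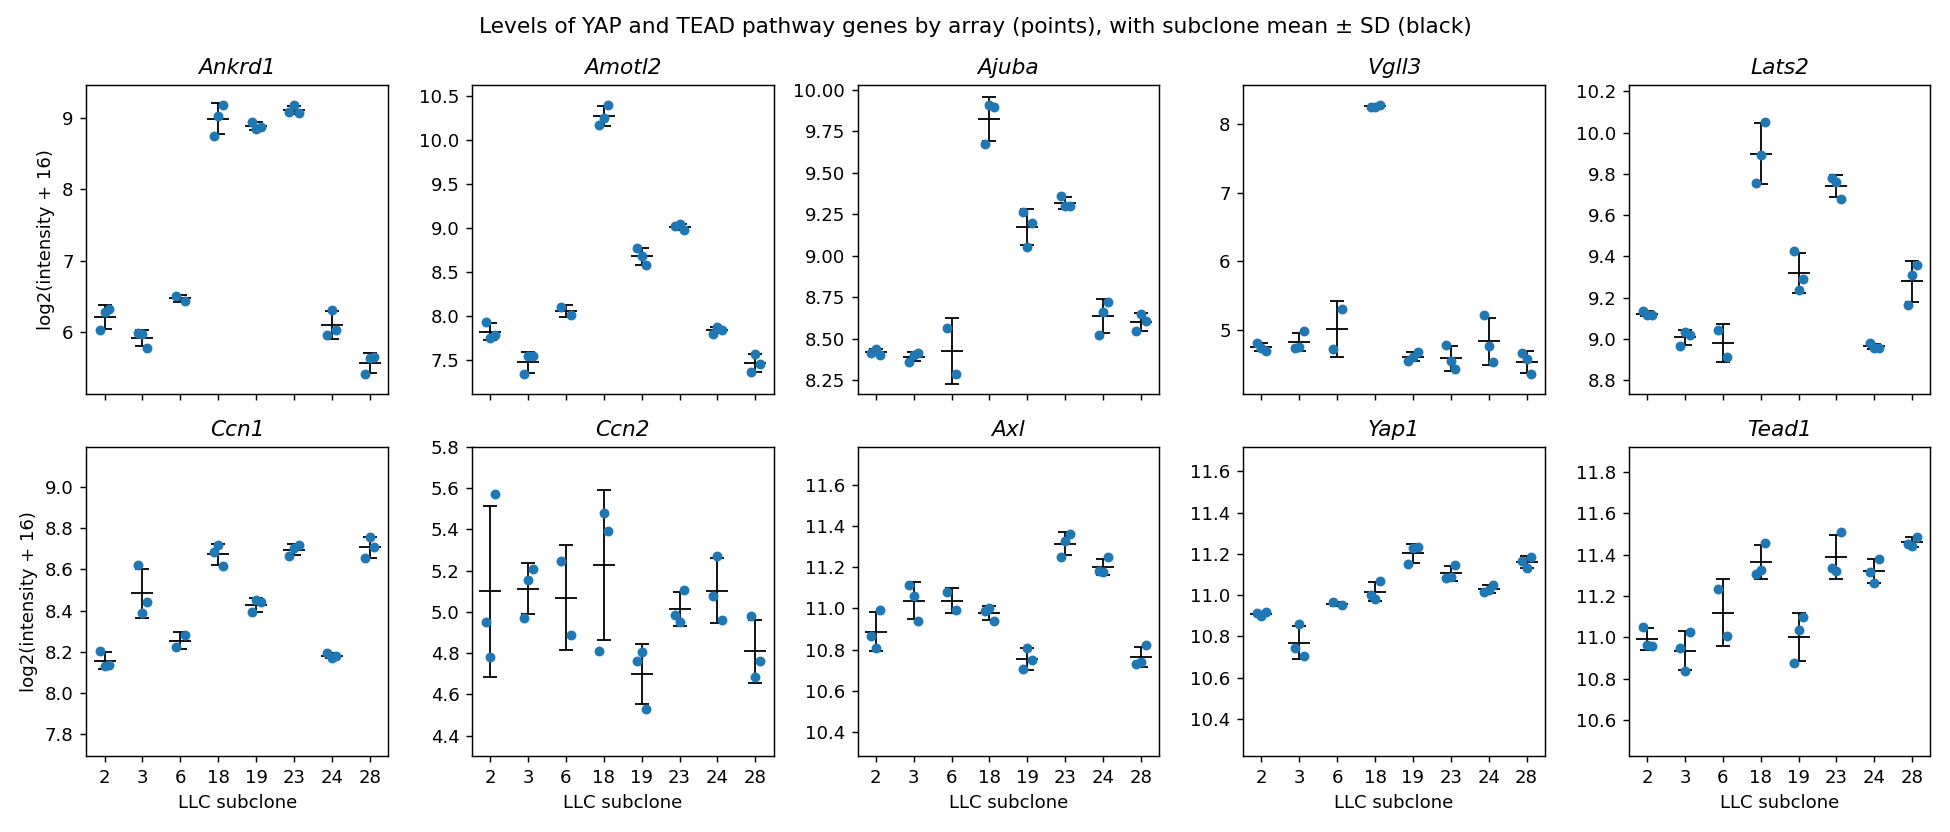
Levels, as log2(intensity + 16), of the 10 genes on each array (points), by subclone on the x axis, with the subclone mean and SD in black; each panel has its own scale. Ankrd1, Amotl2 and Ajuba stand highest in subclones 18, 19 and 23, Vgll3 is high in subclone 18 alone, and Yap1, Tead1, Axl and Ccn1 range over 0.43 to 0.56 log2 units.

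Of the targets, Ankrd1, which encodes an ankyrin repeat protein of muscle and nucleus that is a standard readout of YAP activity, varied most. Its intensity was 415, 506 and 564 in subclone 18, 478, 444 and 453 in subclone 19, and 528, 563 and 519 in subclone 23. In the remaining subclones it was 48.9, 61.9 and 64.2 in subclone 2, 47.6, 46.5 and 38.9 in subclone 3, 74.9 and 70.7 in subclone 6, 45.9, 63.5 and 49.3 in subclone 24, and 26.4, 33.9 and 34.4 in subclone 28. All 9 arrays of subclones 18, 19 and 23 lay above all 14 others. The lowest value, in subclone 28, was just above the mark of 24.

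Ranked by level, Ankrd1 had 9.11 ± 0.060 for subclone 23, 8.99 ± 0.22 for subclone 18 and 8.89 ± 0.054 for subclone 19 (SD, n = 3 each). Neighbours among those 3 were not separated by the test (adjusted p = 0.448 and 0.547, limma). Over all 10 genes, 167 of 280 comparisons of a pair of subclones passed (59.6%), against 35.8% over all genes and the same 28 pairs (19% to 43.9% by pair). Neighbours in the order of a gene lie close by construction, and 14 of their 70 steps passed. The step from subclone 19 to the next, subclone 6, was 2.42 ± 0.12 log2 units (SE, adjusted p = 3.71e-11). Subclones 6, 2, 24 and 3 followed with no neighbours that passed, and subclone 28 lay 0.34 ± 0.11 below subclone 3 (adjusted p = 0.02). Farther apart in that order, subclone 6 differed from subclones 24 and 3 (adjusted p = 0.0318 and 0.00339). From the highest to the lowest subclone the range was 11.7-fold (3.54 ± 0.11 log2 units, SE, adjusted p = 3.73e-14).

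Against the mean of the other 7 subclones, Ankrd1 was 4.27-fold higher in subclone 18, 3.95-fold in subclone 19 and 4.70-fold in subclone 23 (adjusted p from 3.22e-13 to 1.64e-12, limma). Differences upward of at least 1 log2 unit were found in 0.857%, 0.885% and 0.555% of all genes in these subclones. Ankrd1 was 3.52-fold lower in subclone 28, 2.68-fold in subclone 3, 2.31-fold in subclone 24 and 2.11-fold in subclone 2. In these subclones 0.346%, 0.407%, 0.687% and 0.627% of all genes were lower by at least 1 log2 unit. In subclone 2 the difference of -1.08 was -0.99 without its replicate 1 and -0.88 with a pseudocount of 64, and in subclone 24 that pseudocount gave -0.95, all short of 1. The high levels of 3 subclones raise the mean that each of the low ones is set against. With all other arrays taken as 1 group, whose spread then includes the differences between subclones, these 7 calls all missed the threshold (limma, adjusted p from 0.0734 to 0.573). Ankrd1 lies on chromosome 19, where 430 other genes with a mean level of at least 5.32 gave median differences of -0.27 for subclone 18, 0.02 for subclone 19 and 0.14 for subclone 23. The difference of Ankrd1 itself in subclone 18 was 2.09.

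Ccn1 and Ccn2 encode secreted matricellular proteins and are among the most used YAP and TEAD targets. Subclones 28, 23 and 18 had mean Ccn1 intensities of 402, 399 and 392, and subclones 24 and 2, at the low end, of 274 and 269.7. Its level ran over 0.55 ± 0.051 log2 units (1.46-fold, SE, adjusted p = 9.94e-08) between subclones 28 and 2. Subclones 28, 23 and 18 were not separated by the test (adjusted p = 0.905 and 0.782). Subclone 28, with the lowest Ankrd1, had the highest mean of Ccn1 in this probe set, though not separated from subclone 23. Each other Ccn1 probe set (mean levels of 7.87, 5.06 and 5.02) was highest in subclone 23.

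Ccn2 was between 7.12 and 31.5 on every array, and 20 of 23 arrays were under 24. The 3 others were replicate 3 of subclone 2 (31.5) and replicates 2 and 3 of subclone 18 (28.6 and 26.1). The arrays of subclone 18 overlapped those of every other subclone except 19. Its adjusted p in the F-test was 0.205 (range 0.53, and 1.01 with a pseudocount of 1 or 0.21 with a pseudocount of 64), and 1 of 28 pairs passed, subclone 18 against subclone 19 (5.23 ± 0.36 and 4.70 ± 0.15, SD, n = 3 each, adjusted p = 0.0283). Values this near the floor have no firm order. Without subclone 18 replicate 1, Ccn2 passed the F-test (range 0.74, adjusted p = 0.0381), so that this call turned on 1 array.

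Axl encodes a receptor tyrosine kinase for the ligand GAS6. Its mean intensity was 2530 in subclone 23 and 2341 in subclone 24, and lowest in subclones 28 (1722) and 19 (1712). The range was 1.47-fold (0.56 ± 0.054 log2 units, SE, adjusted p = 1.36e-07 for subclone 23 against subclone 19). Subclone 19 was thus among the highest for Ankrd1 and the lowest for Axl, while subclone 18 was in the middle for Axl (10.98 ± 0.034). Averaged with a second probe set that was near the floor throughout, Axl no longer passed the F-test (adjusted p = 0.17).

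Amotl2, Lats2 and Ajuba are both targets and regulators of the pathway. Amotl2 encodes an angiomotin family scaffold that binds YAP and promotes LATS activity. Its intensity was 1137, 1201 and 1329 in subclone 18, 503, 512 and 487 in subclone 23, and 422, 394 and 367 in subclone 19. In the others it was 259 and 242 in subclone 6, 207, 219 and 214 in subclone 24, 229, 201 and 205 in subclone 2, 146, 171 and 172 in subclone 3, and 149.6, 175 and 160.2 in subclone 28. Subclone 18 stood apart from every other array by more than 2-fold in intensity.

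For Amotl2, 4 of the 7 steps between neighbouring subclones passed, the most for any of the 10 genes. Subclone 18 lay 1.26 ± 0.073 log2 units above subclone 23 (adjusted p = 1.4e-10), subclone 23 lay 0.33 above subclone 19, and subclone 19 lay 0.62 above subclone 6 (SE, limma). From subclone 18 to subclone 28 the range was 6.97-fold (2.80 ± 0.073 log2 units, SE, adjusted p = 8.06e-16). Amotl2 in subclone 18 averaged 10.27, against 8.05 for the mean of the others, a 4.65-fold difference. Without subclone 18 altogether, its range over the other 7 was 1.54 log2 units.

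Ajuba encodes a LIM domain protein that binds LATS kinases and restrains them. Its intensity was 801, 944 and 938 in subclone 18, 641, 613 and 615 in subclone 23, and 599, 516 and 570 in subclone 19. Over the remaining 14 arrays it was between 296 and 406, so that all 9 arrays of those 3 subclones lay above them. The range was 2.70-fold (1.43 ± 0.075 log2 units, SE, adjusted p = 1.65e-11, subclone 18 against subclone 3).

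Subclone 18 lay 0.51 ± 0.075 log2 units above subclone 23 in Ajuba (adjusted p = 2.24e-05), and subclone 19 lay 0.54 ± 0.075 above subclone 24 (SE, adjusted p = 1.31e-05). Subclones 23 and 19 were not separated (adjusted p = 0.149), nor were any neighbours among subclones 24, 28, 6, 2 and 3. Farther apart in that order, subclone 24 differed from subclones 2 and 3 (adjusted p = 0.0315 and 0.0151). Subclone 28 differed from subclone 3 (adjusted p = 0.0386). Without subclone 18, the range of Ajuba was 0.93 log2 units, under the mark of 1.

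Lats2, the kinase gene, had intensities of 848, 933 and 1044 in subclone 18 and 863, 851 and 804 in subclone 23. Over the other 17 arrays it was between 466 and 671. Those 6 arrays were thus above all others, and subclone 19 came next at 9.32 ± 0.097 (SD, n = 3). Subclone 19 lay 0.42 ± 0.067 log2 units below subclone 23 (SE, adjusted p = 5.33e-05) and was not separated from subclone 28 (adjusted p = 0.711). The range of Lats2 was 1.91-fold (0.93 ± 0.067 log2 units, SE, adjusted p = 2.01e-09, subclone 18 against subclone 24). It fell just short of the mark of 1 log2 unit, and was 1.01 without subclone 18 replicate 1, which moves it past the mark.

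Ankrd1, Amotl2, Ajuba and Lats2 thus had the same 3 subclones at the top, 18, 19 and 23, in differing order. The same 3 were at the top in 5.43% of all genes, and in 9.14% of the 2308 genes that passed both criteria. That was the most frequent top 3 among these 2308 genes.

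Of the coactivator and its partners, Yap1 varied least in size, with the narrowest range of the 10 genes. Its mean intensity ran from 2340 in subclone 19 and 2273 in subclone 28 to 1732 in subclone 3. The range was 1.35-fold (0.43 ± 0.041 log2 units, SE, adjusted p = 7.15e-08). Of 28 pairs, 19 differed (adjusted p under 0.05), and of the 7 steps between neighbours 1 passed, subclone 2 lying 0.14 ± 0.041 above subclone 3 (SE, adjusted p = 0.0137). Subclone 18, where Amotl2 and Ajuba were highest, had Yap1 at 11.02, beside 11.02 for the mean of the others.

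Tead1 encodes a DNA-binding partner of YAP. Its mean intensity was 2804, 2671, 2622 and 2542 in subclones 28, 23, 18 and 24, and 2039, 2021 and 1945 in subclones 19, 2 and 3, with subclone 6 between them (2216). The range was 1.44-fold (0.53 ± 0.073 log2 units, SE, adjusted p = 1.19e-05, subclone 28 against subclone 3), and 15 of 28 pairs differed, none of them neighbours. Subclone 19, high for Ankrd1, was lower for Tead1 than the mean of the others (adjusted p = 0.00268).

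Vgll3, a vestigial-like cofactor that binds TEAD, had intensities of 289, 288 and 295 in subclone 18. On the other 20 arrays it was between 4.44 and 23.6, all under the mark of 24. In level, subclone 18 was at 8.26 ± 0.017 (SD, n = 3) and subclone 6, the next, at 5.02 ± 0.41 (SD, n = 2), a step of 3.24 ± 0.17 log2 units (SE, adjusted p = 2.46e-11). Against the mean of the other 7 (4.74), it was 11.5-fold higher in subclone 18 (adjusted p = 1.61e-14). That fold depends on the pseudocount (range 3.73, and 2.32 with a pseudocount of 64), since the others lay near the floor, and the order among them carries little weight. Without subclone 18 the F-test was not passed (range 0.48, adjusted p = 0.199).

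**Figure D2:**
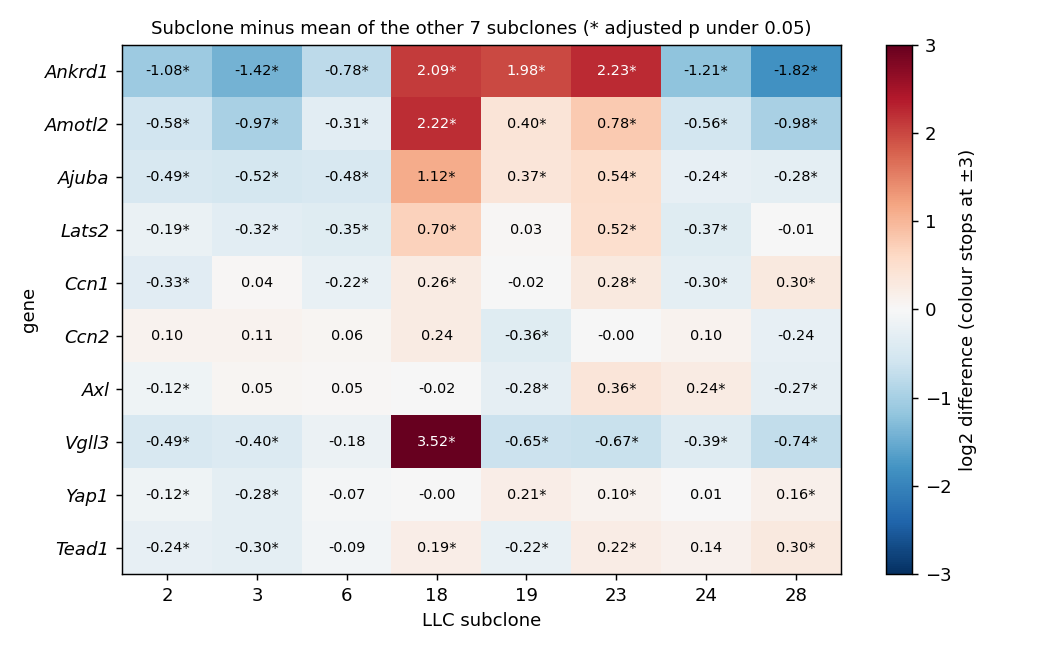
Log2 difference of each subclone (x axis) from the mean of the other 7 for the 10 genes (rows), with the value printed in each cell and an asterisk where the adjusted p was under 0.05. Ankrd1 is at 2.09, 1.98 and 2.23 in subclones 18, 19 and 23, Vgll3 is at 3.52 in subclone 18, and the differences of Tead1 reach at most 0.30 in either direction.

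Counted by subclone on the adjusted p only, whatever the size of the difference, 7 of the 10 genes were higher in subclone 18 than in the mean of the others, against 21.5% of all genes. The other 3, Ccn2, Yap1 and Axl, did not pass there. In subclone 23, 8 were higher (20.2% of all genes) and 1 lower, Vgll3 (17.4%). In subclone 19, 4 were higher, namely Ankrd1, Amotl2, Ajuba and Yap1 (24.2%), and 4 lower, namely Ccn2, Vgll3, Tead1 and Axl (17.7%). In subclone 2, 9 were lower (20.5%), with Ccn2 the exception, and in subclone 3, 7 were lower (18.6%). In subclone 6, 5 were lower (10.1%), and in subclone 24, 6 were lower (17.1%) and 1, Axl, higher (15.2%). In subclone 28, 5 were lower (18.2%) and 3 higher, namely Ccn1, Yap1 and Tead1 (19.2%). These 8 contrasts share arrays, so a gene that is high in 1 or 3 subclones tends to be called low in the others. Vgll3, high in subclone 18 alone, is counted as lower in subclones 2, 3, 19, 23, 24 and 28. All its arrays there were under the intensity of 24, so these counts show no firm lowering of Vgll3. The same holds for Ccn2 in subclone 19 (limma, adjusted p = 0.0445), whose arrays there lay between 7.12 and 11.9. Ccn2 also did not pass the F-test. The 10 genes were also chosen with some of these differences known.

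The other probe sets of the same genes bear on how firm each pattern is. The second probe set of Ankrd1 followed the first over the 23 arrays (r = 0.99), at 8.22 in subclone 23 against 5.11 in subclone 28. Both other probe sets of Vgll3 were high in subclone 18 alone, at 8.28 and 8.58, with r = 0.98 each. For Ccn1, the second probe set ran over 0.96 log2 units and was highest in subclone 23 (8.24) and lowest in subclone 2 (7.28).

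Lats2 had 6 probe sets. The one used carries the suffix x_at, as does the one used for Ccn1, which marks probes that may also match other transcripts. The next gave 8.83 in subclone 18, 8.57 in subclone 23 and 7.74 in subclone 24, a range of 1.09 log2 units with r = 0.94. The third by level, with a mean of 7.30, was highest in subclone 28 (7.58), with r = 0.60. Another, with a mean level of 5.75, was highest in subclone 19 (6.42), with r = 0.04. With the mean of all 6, the range of Lats2 was 0.55 (adjusted p = 5.5e-07). Of 14 probe sets not used for the 10 genes, 7 had a mean level under 5.32. The second Yap1 probe set (7.61 to 7.96) was highest in subclone 24 and not in subclone 19, although both were lowest in subclone 3. The second Tead1 probe set, at 6.04 to 6.35, did not pass the F-test (adjusted p = 0.835, r = 0.39). For Amotl2, Ajuba and Ccn2 there was 1 probe set each, so no such check was possible.

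**Figure D3:**
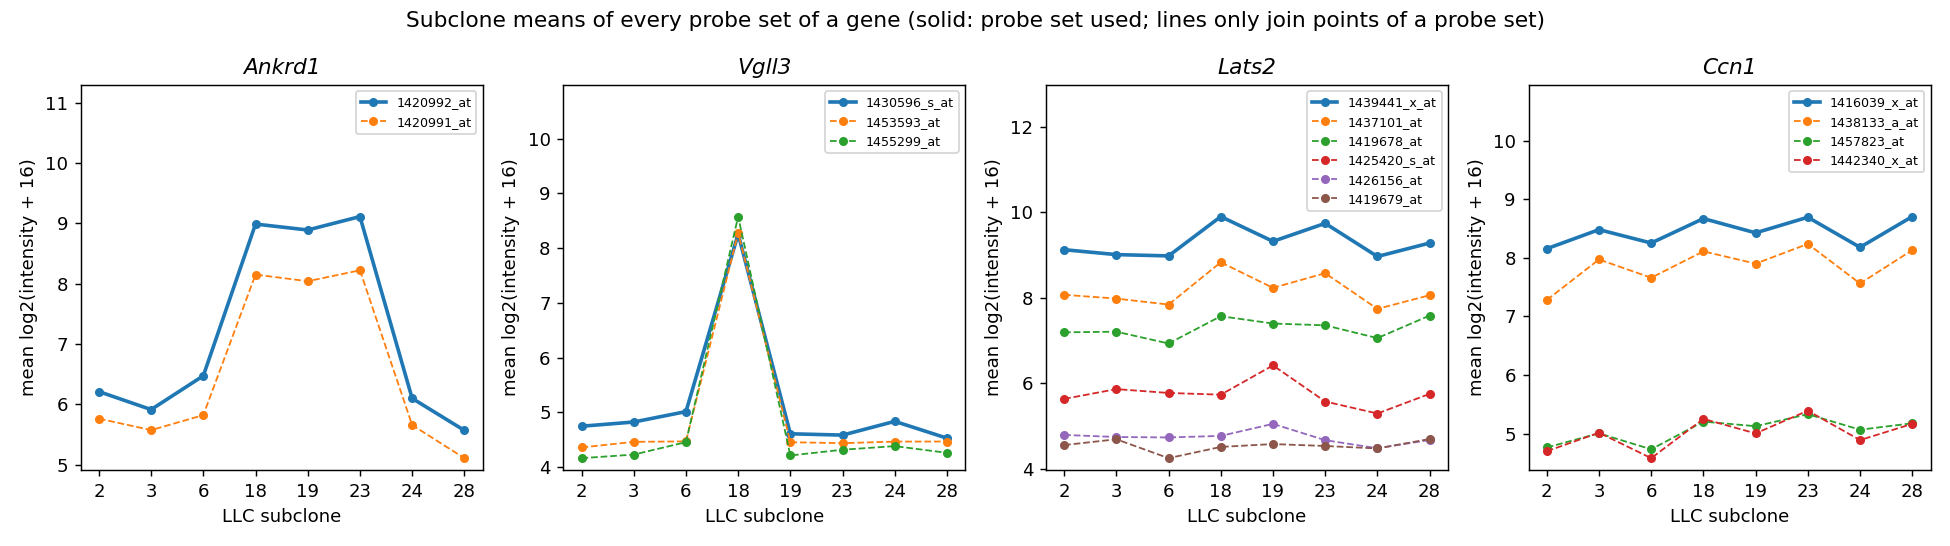
Subclone means, as log2(intensity + 16), of every probe set of Ankrd1, Vgll3, Lats2 and Ccn1 by subclone (x axis), with the probe set used drawn solid. The probe sets of Ankrd1 and of Vgll3 follow each other, while the 3 of Lats2 with mean levels of 5.75 or less have correlations of at most 0.10 with the one used.

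Among the other coactivators and DNA-binding partners, Wwtr1, which encodes TAZ, was highest in subclone 28 (11.94 ± 0.039) and lowest in subclone 18 (11.32 ± 0.083, SD, n = 3 each). It was thus lower by 0.41 log2 units than the mean of the others in the subclone with the highest Amotl2 and Vgll3 (adjusted p = 1.03e-08). Tead2 peaked in subclone 18 (10.03), with subclone 23 close to it (9.99), and had its minimum in subclone 19 (8.97), a range of 1.06. Tead3 was also lowest in subclone 19, at 6.85 ± 0.17, against 7.70 for the mean of the others. Tead4 ran only from 6.42 in subclone 3 to 6.06 in subclone 24 (F-test adjusted p = 0.0393). With Tead1, 3 of the 4 TEAD genes passed as lower in subclone 19 than in the mean of the others, against 17.7% of all genes, and Tead4 did not (adjusted p = 0.916). Of the 10 genes in the list of YAP, TEAD and their cofactors, 2 met both criteria of the F-test, Vgll3 and Tead2, against 12.7% of all genes, and 1 did with a pseudocount of 64 or without subclone 18.

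Of 28 measured genes of the Hippo kinases and their upstream regulators, 8 (28.6%) passed with such a range, against 12.7%, and 5 with the mean of all probe sets. The 8 include Amotl2 and Ajuba, already described and also in the list of targets below. Wtip, which belongs to the same family of LIM proteins as Ajuba, was low in 4 subclones, among them the 3 where Ajuba was highest. Subclones 18, 19, 23 and 28 had 4.49, 4.57, 4.54 and 4.73, all under 5.32, while subclones 2, 3, 6 and 24 had 7.79, 7.96, 7.85 and 7.54. Dchs1, a giant cadherin that acts upstream of the pathway as a ligand of FAT4, was low in the same 4 subclones (4.90 to 5.14) and at 6.32 to 7.26 in the rest. Amot, the founding angiomotin gene, on the X chromosome, was at 8.55 ± 0.15 in subclone 19, against 11.07 for the mean of the others (SD, n = 3; log2 difference -2.52, adjusted p = 8.46e-18). It was also lower in subclone 18, at 10.28, where its relative Amotl2 was highest. Wwc1, which encodes the scaffold KIBRA, was highest in subclone 19 (9.10) and lowest in subclone 2 (7.60). Lats1 was highest in subclone 18 (10.10) and lowest in subclone 24 (9.29), the same 2 ends as Lats2, over 0.81 log2 units.

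**Figure D4:**
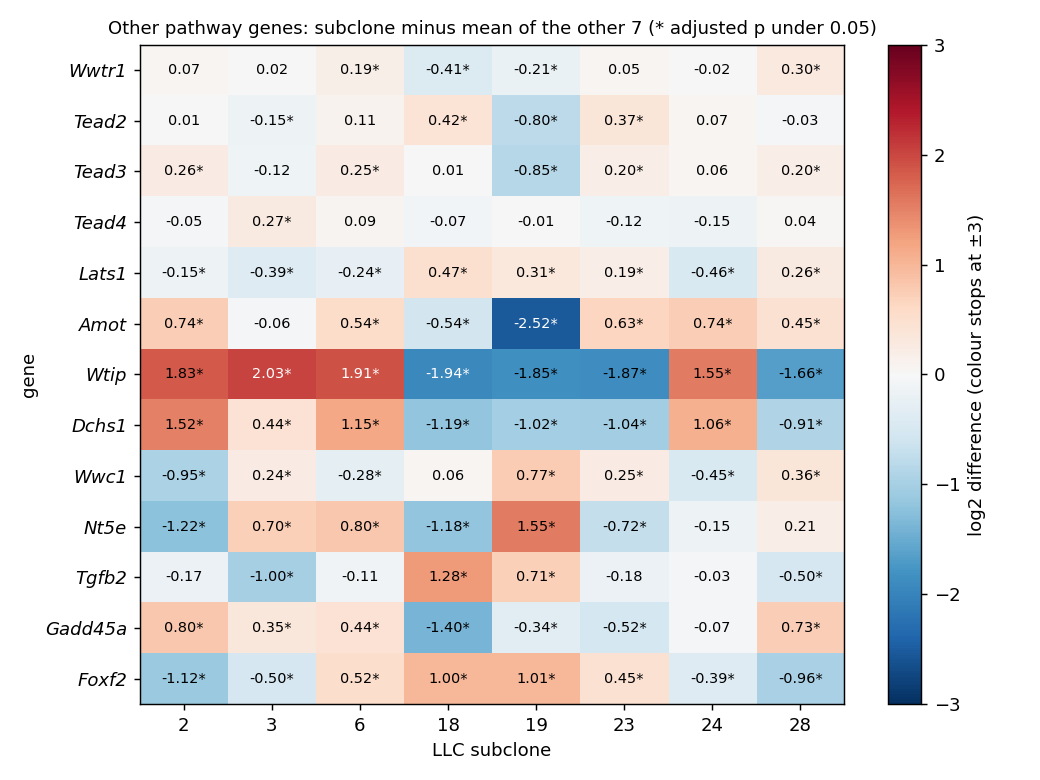
Log2 difference of each subclone (x axis) from the mean of the other 7 for further genes of the pathway (rows), with values printed and an asterisk where the adjusted p was under 0.05. Wtip is at -1.94, -1.85, -1.87 and -1.66 in subclones 18, 19, 23 and 28, and Amot is at -2.52 in subclone 19.

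A list of 26 YAP and TEAD target genes, with all of the 10 described genes but Vgll3, Yap1 and Tead1 among them, had 25 measured, of which 11 (44%) passed with a range of at least 1, against 12.7% of all genes. With the mean of all probe sets, 7 passed. They differed in direction. In subclone 18, 13 of the 25 were higher and 7 lower by adjusted p, against 21.5% and 21.6% of all genes. Of these, 5 were higher by at least 1 log2 unit, namely Ankrd1, Amotl2, Ajuba, Foxf2 and Tgfb2 (0.857% of all genes), and 2 were lower, Gadd45a and Nt5e (1.79%). Gadd45a, a gene of the growth arrest and DNA damage response, was at 10.19 in subclone 18 and between 10.96 and 12.12 elsewhere. Nt5e, which encodes the ectoenzyme CD73, was highest in subclone 19 (7.25 ± 0.14, SD, n = 3) and at 4.87 in subclone 18 and 4.83 in subclone 2. Foxf2, a forkhead transcription factor gene, was at 7.33 and 7.34 in subclones 18 and 19 and at 5.48 in subclone 2. Tgfb2, a TGF-beta ligand gene, was at 6.59 ± 0.18 in subclone 18 and 4.60 ± 0.53 in subclone 3 (SD, n = 3 each).

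**Figure D5:**
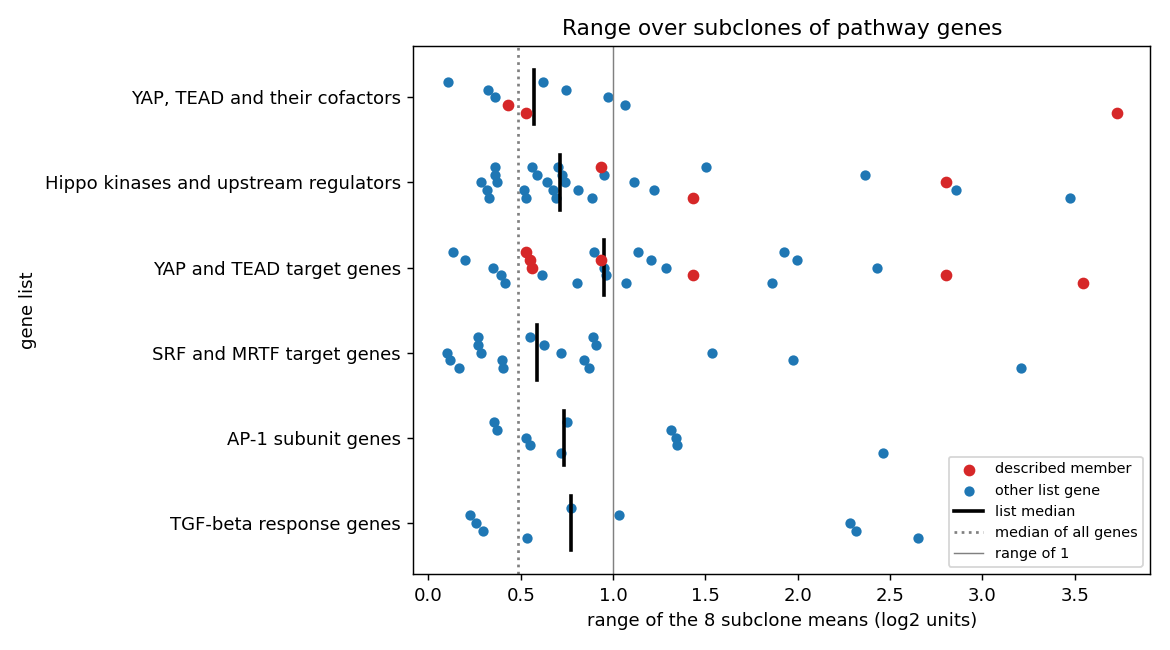
Range of the 8 subclone means (x axis, log2 units) of each measured gene in 6 gene lists (rows), with the described genes in red, list medians as black bars and the median of all genes (0.49) dotted. The median range of the YAP and TEAD target genes is 0.95, and the widest ranges in the first 3 lists belong to Vgll3, Wtip and Ankrd1.

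Other inputs to the same targets gave further contrasts. Serum response factor and its MRTF coactivators drive cytoskeletal genes and share several targets with YAP. Of 18 such genes, 3 passed with a range of at least 1 (16.7%). The share was 12.7% of all genes and 16.9% of those kept by the filter on low values. Tgfb1i1, which encodes the focal adhesion protein HIC-5, was at 4.81 in subclone 18 and 4.98 in subclone 19, and at 7.11 to 8.02 in the others, so it was low in 2 of the 3 subclones with high Ankrd1. Myl9, a myosin light chain gene, peaked in subclone 24 (6.57) and was under 5.32 in subclones 19 (4.60), 23 (4.68) and 28 (5.31). Egr1, an immediate early gene, was highest in subclones 28 (8.63) and 3 (8.61).

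AP-1 proteins bind beside TEAD at many enhancers. Of 10 AP-1 subunit genes, 4 passed with such a range (40%, against 12.7% of all genes). Fosl1 peaked in subclone 28 (11.69 ± 0.018, SD, n = 3), and subclones 18 (10.36) and 24 (10.34) had the least. Jun was likewise highest in subclone 28 (11.86) and lowest in subclone 18 (10.52), and Maff was at 9.98 in subclone 28 and 7.51 in subclone 18. Atf3 was highest in subclone 19 (8.10). Subclone 28, the highest for Fosl1, Jun and Maff, had the lowest Ankrd1. Its mean of Amotl2 was also the lowest, but not separated from that of subclone 3 (adjusted p = 0.938, limma). Not all of the list ran this way. Fosl1 was also low in subclone 24, where Ankrd1 was low (6.10), and Atf3 was highest in subclone 19, where Ankrd1 was high (8.89). Among AP-1 genes with narrower ranges, Fosl2 was highest in subclone 28 (11.08). Jund (12.03) and Junb (8.75) were highest in subclone 23, as Ankrd1 was.

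Of 9 measured genes of the TGF-beta response, 4 passed with such a range (44.4%, against 12.7% of all genes). Bhlhe40 was highest in subclone 6 (9.05) and 1.61 log2 units lower in subclone 18 than in the mean of the others (log2 difference -1.61, adjusted p = 2.98e-13). Ltbp2 was highest in subclone 19 (8.74) and lowest in subclone 18 (6.42). Tgfbi was highest in subclone 24 (8.94) and lowest in subclone 2 (6.65). Smad7, an inhibitor of the pathway, was highest in subclone 28 (8.53) and lowest in subclone 19 (7.50).

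The genes most like each of the 4 widest were sought among 2304 other genes that met both criteria, by the correlation of their 8 subclone means. These means share the same arrays, and the values describe likeness only. For Ankrd1 they were Foxf1, a forkhead transcription factor gene (r = 0.98, rho = 0.93, and r = 0.98 without the 2 subclones farthest from the median), and Tinagl1 (r = 0.97, rho = 0.86, and r = 0.98 without those). Foxf1 was at 8.18 in subclone 18 and 5.01 in subclone 3. For Amotl2 they were Llgl2 (r = 0.99, rho = 0.98) and Amigo2 (r = 0.97, rho = 0.93), although Llgl2 was near the floor, between 4.47 and 5.47. For Ajuba they were Scap, the escort protein gene of the sterol regulators (r = 0.98, rho = 0.98), and Lrig3 (r = 0.98, rho = 0.90), and both were highest in subclone 18 and lowest in subclone 3, as Ajuba was. For Vgll3 they were Tph2 (r = 0.996, rho = 0.90) and Nid2 (r = 0.98, rho = 0.02), and without the 2 farthest subclones r was 0.70 and -0.62, so that this likeness rested on subclone 18.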

How the data were processed

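Linear probe set intensities from 23 Affymetrix arrays of 8 LLC subclones were used as the authors deposited them. Per the labels' protocols, biotin-labelled cRNA was made from total RNA. The algorithm, scaling and genome build were not given in the sources used here, so how the summary and background steps shaped low intensities is unknown. From 45101 probe sets, 64 controls, 932 with several symbols and 9160 not listed in the probe annotation were left out. Symbols were updated by Entrez identifier through the RefSeq table of GRCm38.p6 for 34741 of 34945 probe sets. Each of 18193 genes was represented by its probe set with the highest mean.

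Each subclone had its own coefficient in a linear model of log2(intensity + 16), fitted using limma 3.58.1 under R 4.3.3 (15 residual degrees of freedom). Contrasts were an F-test over the 8 means, each subclone minus the mean of the other 7, and all 28 pairs, each adjusted over all genes by Benjamini-Hochberg. The steps were tested on simulated data. The members and lists were chosen with earlier results of these data known. Named besides the members were up to 4 further genes per list with the widest ranges, Wwtr1, Tead2 to Tead4, Lats1, and the 2 genes most like each widely varying member. A few marker genes and, to show both directions among AP-1 genes, Fosl2, Jund and Junb were named as well. A few listed genes are not reported here. Alternatives were other pseudocounts, quantile normalization, a filter on low values, the mean of all probe sets, another variance model, a replicate block, all other arrays as 1 group, and leaving out each array or subclone 18.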

Additional observations from a re-analysis of the deposited data

How the results depend on the processing

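With 4 members past the F-test at a range of at least 1, leaving out each array in turn gave 4 to 5. The 10 calls of a member apart in a subclone became 9 to 11, and the 14 passing steps between neighbours 12 to 15. Over the same 23 fits, the list of YAP, TEAD and cofactors gave 2 to 3 genes, Hippo kinases and regulators 8 to 9, targets of YAP and TEAD 10 to 12, targets of SRF and MRTF 3, AP-1 subunits 4 and the TGF-beta response 4. Without subclone 2 replicate 1 the difference of Ankrd1 in subclone 2 was -0.99, short of 1, and without subclone 18 replicate 1 Lats2 reached 1.01 and Ccn2 passed the F-test (adjusted p = 0.0381). With a pseudocount of 64, the cofactor list gave 1 gene in place of 2, and all genes past the F-test with such a range numbered 1482 in place of 2308. With the mean of all probe sets, Hippo kinases and regulators gave 5 in place of 8 and the targets 7 in place of 11; the cause was not tested. With all other arrays as 1 group, 3 calls of a member apart remained of 10 (Amotl2, Vgll3 and Ajuba in subclone 18), since the differences between the other subclones then count as spread. Without subclone 18, chosen after seeing the data, 2 members passed (Ankrd1 and Amotl2) and the cofactor list gave 1 gene. No alternative run reversed the direction of these calls. Correlations of the deviations from the subclone means were computed between arrays of different subclones. With the same replicate number, 8 of 77 pairs of arrays had a correlation over 0.1, and with other numbers 10 of 154 did. The medians were -0.007 and 0.001. The numbers were not taken as pairs, although these counts cannot show that no arrays were handled together. With the replicate block, 4 members passed, as without it, all genes called numbered 2314, and no call on a member changed. No detection calls were used, so signal over background limits what can be said of Ccn2, and of Vgll3 outside subclone 18.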
